A study of Homo sapiens with 10 samples.

Results

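RN7SL1 and the other abundant structural noncoding RNAs of MEG-01 cells were followed through overexpression of miR-1225-3p. The set held 6 genes, RN7SL1, RN7SK, RMRP, RPPH1, MALAT1 and NEAT1. RN7SL1 was chosen by its low signal in the miR-1225-3p samples of these same arrays, and the other RNAs were added to it as structural noncoding RNAs, so their differences between the groups are given as a description, without a test. A probe could be matched to 5 of the 6 genes, among 17379 genes tested in all. NEAT1 was not analysed here, because none of the RefSeq accessions carried by the probes was matched to it. MEG-01 is an established human megakaryoblastic leukemia line. The cells were transfected by nucleofection either with the precursor of miR-1225-3p or with a scrambled control at 200 nM, and RNA was taken after 24 hours. There were 5 biological replicates per group, each on its own one-colour Agilent whole genome array. The source field of the scrambled samples reads as untreated, while their titles name the scrambled transfection, so no culture without nucleofection was compared. Of 7 megakaryocyte markers, ITGA2B, ITGB3, GATA1 and TAL1 were well above background on all 10 arrays. The platelet glycoproteins GP9 and GP1BA were so on 8 and 4 arrays, and PF4, a platelet granule chemokine, on 0.

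Structural noncoding RNAs act as RNA in stable complexes with proteins. RN7SL1 is the RNA scaffold of the signal recognition particle, which brings ribosomes making secretory and membrane proteins to the endoplasmic reticulum. RN7SK holds the kinase complex P-TEFb inactive and so restrains transcription elongation, RMRP is the RNA of RNase MRP, which cuts ribosomal RNA precursors, and RPPH1 is the catalytic RNA of RNase P, which trims the 5′ ends of transfer RNAs. These are made by RNA polymerase III and end without a poly(A) tail. MALAT1 is an RNA polymerase II transcript of nuclear speckles, and NEAT1 builds paraspeckles. A microRNA acts mainly through its seed, bases 2 to 8 counted from the 5′ end, which pairs with messenger RNAs. The mature sequence of the transfected microRNA is shown because it is the agent whose effect the comparison addresses. It is given from RefSeq (GRCh38.p14, chr16:2090195-2090216, minus strand, 22 bases), with the seed in capitals, and no other mature human microRNA in the RefSeq table had this seed.
hsa-miR-1225-3p: uGAGCCCCugugccgcccccag

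Each of the 5 genes was measured by 1 probe, printed once on the array for RN7SL1, RPPH1 and MALAT1 and as 2 spots for RN7SK and RMRP. All 5 probes were well above background on all 10 arrays, and 0 of their spots were flagged as outliers or saturated. The signal of different probes cannot be compared, so the arrays do not rank these RNAs by abundance. In the values that follow, signal means the normalized log2 signal, where 1 unit is a doubling. Hybridisation took up 2 slides, the first holding 2 arrays of miR-1225-3p and 3 of the scrambled control and the second 3 and 2. miR-1225-3p replicate 5 stood apart from its group: on the first principal component of all genes it lay at 56.7, among the scrambled arrays (48.7 to 79.9) and away from the other miR-1225-3p arrays (-133.4 to -53.0). The difference of each of the 5 RNAs and the counts in each gene list are therefore given with and without it.

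RN7SL1 (RefSeq gene of 299 bases, chr14:49586580-49586878, GRCh38.p14) carried the largest difference of the set. In miR-1225-3p replicates 1 to 5 its signal was 12.89, 12.22, 12.22, 11.25 and 15.06, and in scrambled replicates 1 to 5 it was 15.78, 15.62, 15.36, 15.58 and 15.23. The scrambled arrays lay close together, 4 of the 5 miR-1225-3p arrays lay well below them, and replicate 5 lay just under the lowest scrambled array, by 0.18. The group means were 12.73 ± 1.43 (SD, n = 5) with miR-1225-3p and 15.51 ± 0.22 (SD, n = 5) with the scrambled control. The difference was -2.78 on the log2 scale (SE 0.65), which is 6.88-fold lower with miR-1225-3p. Without replicate 5 it was -3.37 (SE 0.35), or 10.3-fold. Of the 17379 genes, 262 (1.51%) had a lower difference than RN7SL1. RN7SL1 was the single member, of 5, for which no miR-1225-3p array reached the scrambled range, a separation that 4.74% of all genes showed in the same direction; nothing is read from that count, since RN7SL1 was selected on this contrast.

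The difference of RN7SL1 was present on both slides, at -2.90 on the first and -2.75 on the second, and at -3.86 on the second without replicate 5. The genome holds many near-identical copies of RN7SL1, among them RN7SL2 and RN7SL3, whose RNA the probe may also have bound, so the signal is uncertain as that of the single gene. RN7SL2 and RN7SL3 themselves were not analysed here.

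**Figure D1:**
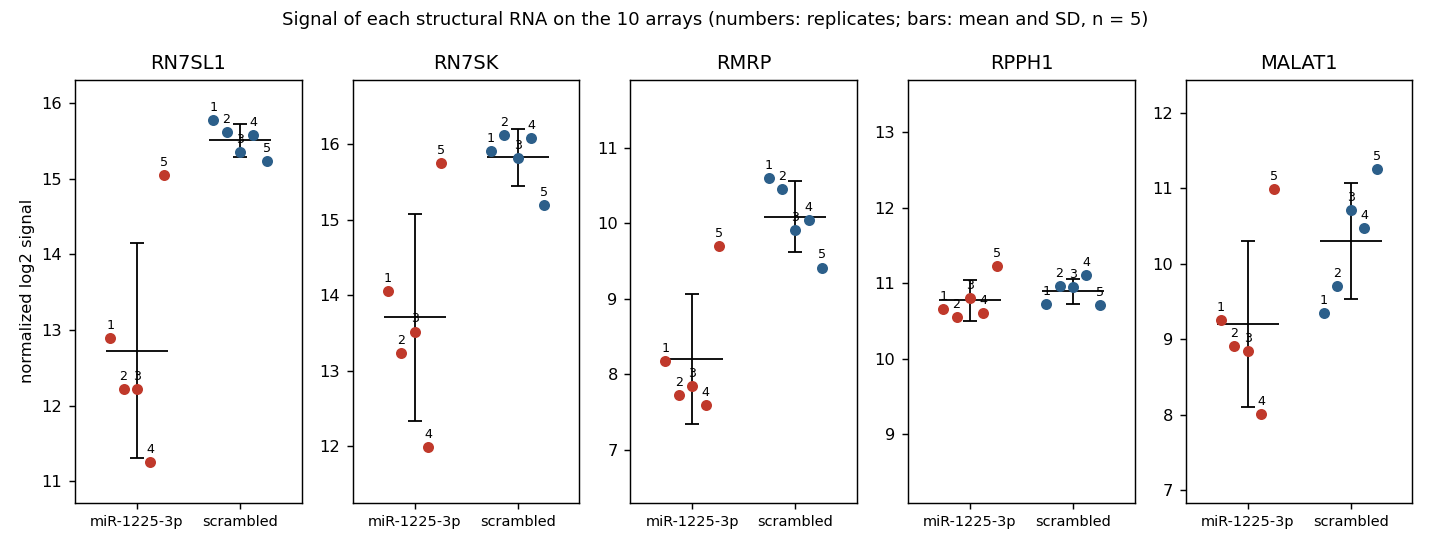
Normalized log2 signal (vertical axis, a span of equal height in each panel) of RN7SL1, RN7SK, RMRP, RPPH1 and MALAT1 on the miR-1225-3p (red) and scrambled (blue) arrays. Points are arrays numbered by replicate, and bars give the mean and SD (n = 5). miR-1225-3p replicates 1 to 4 lie under all scrambled arrays for every gene but RPPH1, and replicate 5 lies at 15.06 for RN7SL1, next to the lowest scrambled array at 15.23.

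RN7SK (332 bases, chr6:52995620-52995951), the RNA that sequesters P-TEFb, kept the order of RN7SL1 over miR-1225-3p replicates 1 to 4, but not over the scrambled arrays. Its signal was 14.06, 13.23, 13.52, 11.98 and 15.74 in miR-1225-3p replicates 1 to 5 and 15.91, 16.12, 15.81, 16.08 and 15.19 in the scrambled replicates. Replicates 1 to 4 were below every scrambled array, whereas replicate 5 fell inside the scrambled range, so the groups overlapped. The means were 13.71 ± 1.37 and 15.82 ± 0.38 (SD, n = 5 each), a difference of -2.12 (SE 0.64), 4.34-fold lower with miR-1225-3p. Without replicate 5 the difference was -2.63 (SE 0.47) and the groups were separate. The 2 spots of the probe differed by at most 0.085 on any array, far less than the arrays differed from each other.

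RMRP (270 bases, chr9:35657750-35658019), the RNA of the ribosomal RNA processing enzyme RNase MRP, had signals of 8.18, 7.73, 7.84, 7.60 and 9.70 with miR-1225-3p and of 10.60, 10.46, 9.92, 10.04 and 9.42 with the scrambled control, in the order of the replicates. Again replicates 1 to 4 were below all scrambled arrays and replicate 5 was within their range. The means were 8.21 ± 0.86 and 10.09 ± 0.47 (SD, n = 5 each), a difference of -1.88 (SE 0.44), 3.68-fold lower with miR-1225-3p. Without replicate 5 the difference was -2.25 (SE 0.24). The 2 spots differed by at most 0.26.

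RPPH1 (341 bases, chr14:20343071-20343411), whose RNase P is the sister enzyme of RNase MRP, did not share this difference between the groups. Its signal was 10.66, 10.56, 10.80, 10.61 and 11.23 in miR-1225-3p replicates 1 to 5 and 10.73, 10.97, 10.94, 11.11 and 10.72 in the scrambled replicates. The groups overlapped with and without replicate 5, which was the highest of the 10 arrays. The means were 10.77 ± 0.27 and 10.89 ± 0.17 (SD, n = 5 each), and the difference of -0.12 (SE 0.14) was smaller than the SD of either group. Without replicate 5 the difference was -0.24 (SE 0.09). Under the scaling of each array to its 75th percentile, in which the median gene rose by 0.16, the difference turned to 0.34.

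MALAT1 (8779 bases, chr11:65497738-65506516) spread widely in both groups. Its signal was 9.26, 8.91, 8.84, 8.01 and 10.99 in miR-1225-3p replicates 1 to 5 and 9.34, 9.70, 10.71, 10.48 and 11.26 in the scrambled replicates. Replicate 5 exceeded 4 of the 5 scrambled arrays, and the other miR-1225-3p arrays were below all of them, replicate 1 by under 0.1. The means were 9.20 ± 1.10 and 10.30 ± 0.77 (SD, n = 5 each), and the difference of -1.10 (SE 0.60) was about as large as the SD of the miR-1225-3p group. Without replicate 5 it was -1.54 (SE 0.44).

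Replicate 4 of miR-1225-3p was the lowest of all 10 arrays for RN7SL1, RN7SK, RMRP and MALAT1, and replicate 5 was the highest miR-1225-3p array for all 5 genes. Across the 10 arrays the signal of RN7SL1 had a Pearson correlation of 0.981 with RN7SK, 0.974 with RMRP, 0.788 with MALAT1 and 0.638 with RPPH1. These are descriptions over 10 arrays that share the group difference, and the arrays differ also in the standing of replicate 5. After the group means were subtracted, the correlation was 0.968 with RN7SK, 0.915 with RMRP, 0.760 with RPPH1 and 0.725 with MALAT1. Replicate 5, far above the other miR-1225-3p arrays for RN7SL1, weighs heavily in these values, so they do not show that the scrambled arrays ranked alike. MALAT1 was lowest among the scrambled arrays in replicate 1 (9.34), where RN7SL1 was highest (15.78). In scrambled replicate 5 MALAT1 was highest (11.26) and RN7SL1 lowest (15.23).

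Since a constant scaling of an array moves all of its log2 signals equally, the differences between members were also taken within each array from the unnormalized log2 signal. Such gaps do not remove an array effect that differs between bright and dim probes. The RN7SL1 signal minus the RPPH1 signal ranged from 0.80 to 3.75 with miR-1225-3p and from 4.24 to 5.05 with the scrambled control. The groups did not overlap in this quantity, and its means differed by -2.49 (SE 0.51), or by -2.93 without replicate 5. For RMRP minus RPPH1 the groups did not overlap either, and the difference of the means was -1.90 (SE 0.38), or -2.19 without replicate 5. For RN7SK minus RPPH1 replicate 5, at 4.42, overlapped with the scrambled arrays (4.29 to 5.19), and the difference of the means was -1.80 (SE 0.49), or -2.15 without replicate 5. RN7SL1 minus RN7SK ranged from -1.33 to -0.67 with miR-1225-3p and from -0.49 to 0.07 with the scrambled control, so the RN7SL1 signal was lowered by more than that of RN7SK. These gaps carry no test, because the RNAs were selected on the contrast.

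RN7SL1 kept the largest difference under other processing, while RN7SK and RMRP, which lay close to each other, changed places under some choices, spike-in scaling among them. Over 12 ways of scaling, background correction, spot handling, blocking or restricting to a slide, the difference of RN7SL1 lay between -2.90 and -2.16. That of RN7SK lay between -2.35 and -1.46, that of RMRP between -2.02 and -1.55 and that of MALAT1 between -1.35 and -0.72. Among these ways, keeping flagged spots, taking the median of spots and the replicate block could not move any of the values. The probes had 0 flagged spots and 1 or 2 spots each, and every replicate number held 1 array per group. Leaving out each array in turn gave -3.37 to -2.41 for RN7SL1, -2.63 to -1.69 for RN7SK, -2.25 to -1.73 for RMRP and -1.54 to -0.80 for MALAT1. The lowest value came each time without miR-1225-3p replicate 5 and the highest without miR-1225-3p replicate 4. Scaling to the E1A spike-in controls, synthetic RNAs added in a fixed amount, gave -2.53 for RN7SL1, -1.83 for RN7SK, -1.93 for RMRP, -0.03 for RPPH1 and -1.09 for MALAT1. The mean spike-in signal was 13.36 ± 0.27 and 13.41 ± 0.18 (SD, n = 5 each) in the miR-1225-3p and scrambled groups.

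**Figure D2:**
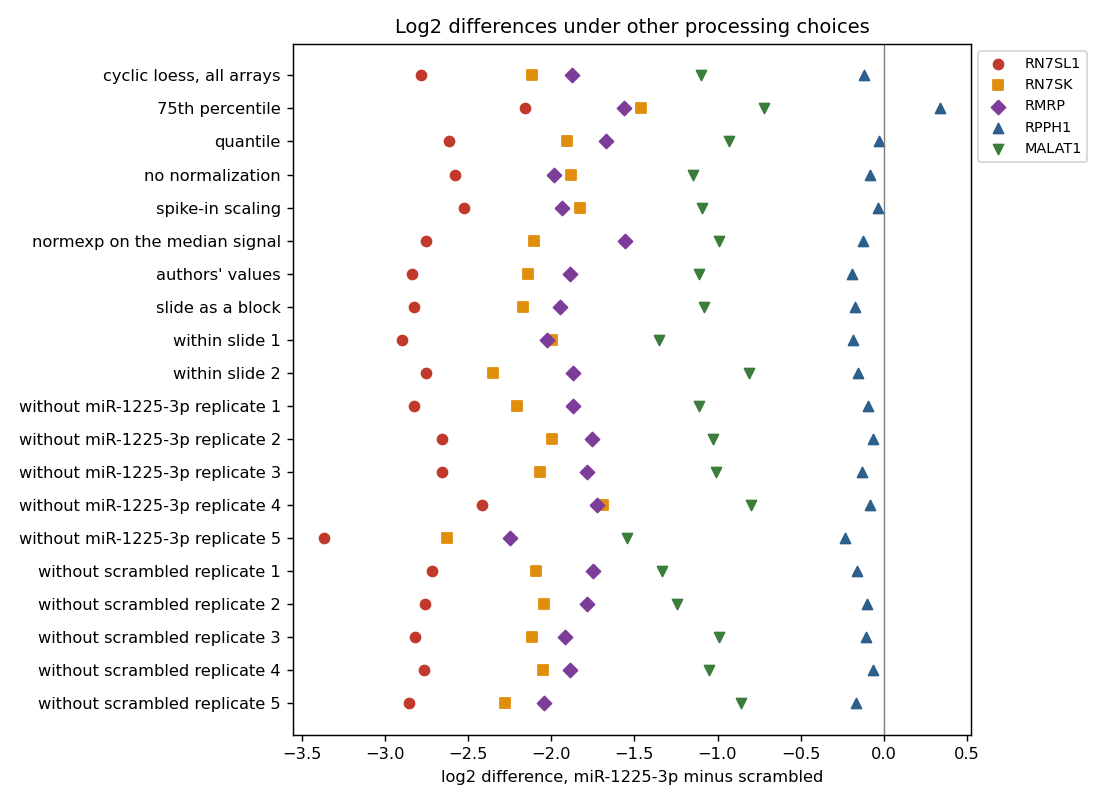
Log2 difference between the miR-1225-3p and scrambled groups (horizontal axis) for the 5 structural RNAs under each processing choice and with each array left out (rows). Points are differences of group means. RN7SL1 stays lowest in every row shown, between -3.37 and -2.16, and RPPH1 stays nearest to 0, rising to 0.34 under 75th percentile scaling.

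The genes whose signal followed RN7SL1 most closely over the 10 arrays, among 17302 genes, were FAM83A with a correlation of 0.997, the transcript XR_037264 with 0.995, RNA28SN5 with 0.995, DCAF7 with 0.995 and HNRNPL with 0.994. RN7SK ranked at 187 and RMRP at 326 in this order. After the group means were subtracted, RNA28SN5, a gene of 28S ribosomal RNA, stood first with 0.996, followed by the unnamed probe A_24_P401100, FAM83A, XR_037264 and CFL1.

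RNA28SN5 has 4 probes and was read from the brightest, and the others are not reported here. RNA28SN5 had signals of 13.73, 12.43, 12.67, 10.36 and 17.97 in miR-1225-3p replicates 1 to 5 and of 18.91, 18.34, 17.62, 17.95 and 17.58 in the scrambled replicates. As for RN7SL1, replicates 1 to 4 were far below the scrambled arrays, replicate 4 was the lowest, and replicate 5 was level with the scrambled arrays. The difference was -4.65 (SE 1.14), or 25.0-fold lower, and -5.78 without replicate 5. The probe for 18S ribosomal RNA, RNA18SN5, differed by -4.77 (SE 1.08) and that for 5.8S, RNA5-8SN5, by -3.24 (SE 0.89). Without replicate 5 these were -5.85 and -4.04. Over 9 settings of scaling, background correction and spot handling, the main one among them, these differences stayed between -4.82 and -2.85. Ribosomal RNA has near-identical gene copies, so each probe stands for the whole family. The labelling kit primes from poly(A) tails, which neither ribosomal RNA nor the RNA polymerase III transcripts carry as mature RNA. How they entered the labelling, and the part of that step in the differences of RN7SL1, RN7SK and RMRP, was not tested.

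Other structural RNAs were therefore listed by their RefSeq class, a list made after the values had been seen and given without a test. It held 31 genes outside the set above: 3 ribosomal, 3 small nuclear, 14 small nucleolar, 10 small Cajal body RNAs and the telomerase RNA. The difference was below 0 for 27 of the 31, against 53.3% of all genes, and below -1 for 17 of them (54.8%), against 15.3% of all genes. The median difference was -4.65 for ribosomal RNA, -1.08 for small nuclear RNA, -1.27 for small nucleolar RNA and -0.39 for small Cajal body RNA. Replicate 5 was the highest miR-1225-3p array for 23 of the 31. RN7SL1 stood among the RNAs with the lowest differences, together with SNORA73A at -3.12 and SNORD15A at -2.77, while RPPH1 stood near SCARNA7 and SCARNA2, with differences close to 0.

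**Figure D3:**
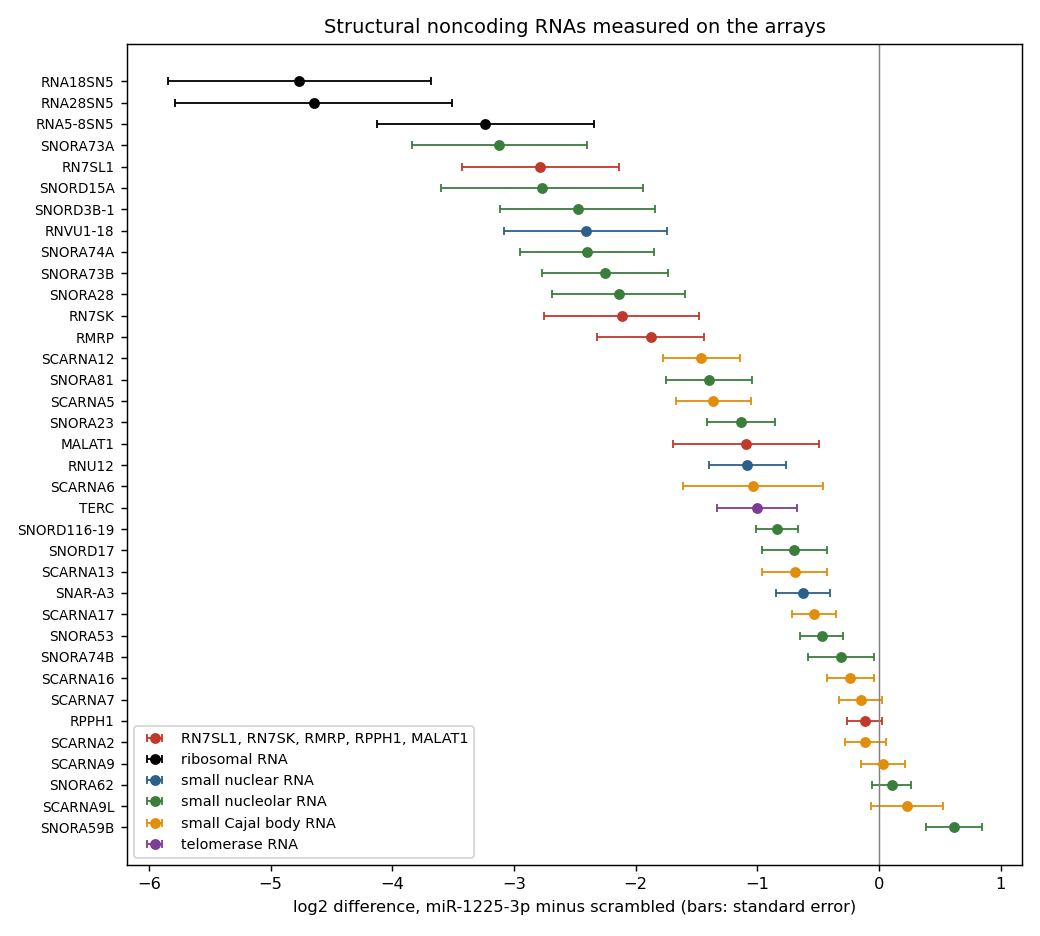
Log2 difference between the miR-1225-3p and scrambled groups (horizontal axis, bars are standard errors) for RN7SL1, RN7SK, RMRP, RPPH1 and MALAT1 (red) and 31 further structural RNAs coloured by RefSeq class (rows, sorted by the difference). Ribosomal RNAs lie lowest, at -4.77, -4.65 and -3.24, RN7SL1 lies at -2.78, and RPPH1 lies close to 0 at -0.12.

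The genes of the proteins that work with these RNAs were compared next, in 6 lists, with a list of other small structural RNAs as the last. The lists held 120 genes, of which 94 were tested. They were drawn up by function with earlier results of these arrays known, and the adjusted p-values come from limma over all 17379 genes. Of the 94, 15 rose and 15 fell with miR-1225-3p, 31.9% in all, against 35.0% of all genes tested (17.0% higher and 18.1% lower), so the listed genes as a whole changed about as often as other genes. The even split depended on the scaling, with 33 higher and 9 lower under 75th percentile scaling and 18 and 10 under quantile scaling. Their median difference was 0.01 and that of all genes was -0.06. Without miR-1225-3p replicate 5, 24 were higher and 27 lower, 51 in all, against 55.4% of all genes. With the arrays scaled to the spike-in controls 0 of the 94 passed in limma, and 21 had an unadjusted p under 0.05.

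The signal recognition particle proteins and their receptor, the partners of RN7SL1, held 1 gene that rose and 1 that fell of 8, with a median of -0.02. Without replicate 5 these counts were 1 and 2. With all arrays, called genes were 25% of this list, against 35.0% of all genes tested, and with 8 genes nothing is read from this. SRP68, which binds the RNA together with SRP72, fell: its signal was 6.68, 6.29, 6.08, 5.71 and 8.62 in miR-1225-3p replicates 1 to 5 and 7.95 to 8.95 in the scrambled replicates, a difference of -1.78 (SE 0.50, adjusted p = 0.0249), or -1.13 with normexp background correction. The call of SRP68 was lost under 10 of 25 alternative settings. Replicate 5 lay within the scrambled range for SRP68, as it did for RN7SK and RMRP. SRP9, of the pair that binds the Alu domain, rose by 0.51 (SE 0.15, adjusted p = 0.0313), but its 2 other probes differed by -1.03 and 0.01, so the probes of SRP9 disagreed, and the call was not kept under 15 of the 25. Its partner SRP14 differed by 0.10 (adjusted p = 0.525), and SRP54, the subunit that binds the signal peptide, by 0.01 (adjusted p = 0.973).

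At the membrane that the particle serves, 2 of 15 tested genes of the translocon and signal peptidase rose and 0 fell in limma. At an unadjusted p under 0.05 these counts were 3 and 2, and the methods' t-test called 3 higher and 0 lower. With all arrays, called genes were 13.3% of this list in limma, against 35.0% of all genes tested. Without replicate 5, 3 genes were higher and 5 lower in limma, 8 of 15, against 55.4% of all genes. SEC11C, a catalytic subunit of signal peptidase, rose by 0.78 (SE 0.19, adjusted p = 0.0177), with every miR-1225-3p array above every scrambled array. SEC61B, a small subunit of the translocon, rose by 0.59 (SE 0.16, adjusted p = 0.0238). Under 75th percentile scaling these were 1.25 and 1.19. The median of this list was -0.30 and turned to 0.24 under that scaling.

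In the 7SK and P-TEFb list, the partners of RN7SK, 4 of 11 genes fell and 1 rose. That was 45.5% of the list, against 35.0% of all genes tested, and with 11 genes nothing is read from this excess. The median of -0.49 stayed below 0 under the 5 other scalings (-0.75 to -0.33). Under 75th percentile scaling 3 rose and 3 fell, and without replicate 5, 3 rose and 6 fell. CDK9, the kinase of P-TEFb, had signals of 7.19, 7.24, 6.96, 7.39 and 8.43 with miR-1225-3p and of 9.06, 9.15, 8.73, 8.98 and 8.56 with the scrambled control. All miR-1225-3p arrays were below all scrambled arrays, and CDK9 fell by 1.45 (SE 0.26, adjusted p = 0.0136), or 2.74-fold. MEPCE, the enzyme that caps the 5′ end of RN7SK, fell by 1.85 (SE 0.40, adjusted p = 0.0148). Its probe cleared the background on 2 of 5 arrays with miR-1225-3p and on 4 of 5 with the scrambled control, so the low values are near the limit of the array, and with normexp its difference was -0.43. HEXIM1, the inhibitor that RN7SK brings to P-TEFb, fell by 0.67 (SE 0.24, adjusted p = 0.0492), a call lost under 20 of the 25 settings, with a difference of -1.02 under spike-in scaling and -0.32 with normexp. LARP7, which protects the 3′ end of RN7SK, differed by 0.48 (SE 0.19, adjusted p = 0.0664), and by 0.64 on its other probe (adjusted p over all probes of 0.0339). LARP7 passed under 5 of the 25 settings, among them without replicate 5 (adjusted p = 0.00194 in limma). The fourth gene that fell was AFF4, the scaffold of the super elongation complex, by 0.64 (adjusted p = 0.0199). Its other probe differed by -1.63 (adjusted p over all probes of 0.0146 in limma).

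Of 10 proteins of RNase P or RNase MRP, the partners of RMRP and RPPH1, 1 rose and 0 fell in limma. The methods' t-test gave the same counts, and the median difference was 0.07. At an unadjusted p under 0.05, and also in limma without replicate 5, 2 were higher and 0 lower. Under 75th percentile scaling 4 were higher and 0 lower. In the main comparison, called genes were 10% of this list, against 35.0% of all genes tested. RPP40, a subunit of RNase P, rose: its signal was 10.88, 10.59, 10.63, 10.40 and 9.87 with miR-1225-3p and 9.59, 9.56, 9.41, 9.38 and 9.39 with the scrambled control. The groups did not overlap, and the difference was 1.01 (SE 0.18, adjusted p = 0.0136). POP1, the largest protein of both enzymes, differed by 0.15 (adjusted p = 0.471) and RPP25 by -0.36 (adjusted p = 0.354).

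Of 14 paraspeckle and MALAT1-binding proteins, 1 rose and 2 fell, with a median of 0.12. That was 21.4% of the list, against 35.0% of all genes tested. With the mean of a gene's probes in place of the brightest, 6 passed in limma. Under 75th percentile scaling 8 rose and 0 fell in limma, with a median of 0.49, under quantile scaling 1 rose and 0 fell, and without replicate 5, 4 rose and 3 fell. SFPQ, a core paraspeckle protein, rose by 0.69 (adjusted p = 0.0138), or by 1.18 under 75th percentile scaling, with all miR-1225-3p arrays, at 11.54 to 11.85, above all scrambled arrays, at 10.82 to 11.28. HNRNPK, an RNA-binding protein, fell by 0.50 (adjusted p = 0.0422), a call lost under 17 of the 25 settings. Under 75th percentile scaling its difference was -0.04, and its other probe differed by -3.09. NONO, which pairs with SFPQ, differed by -0.33 (adjusted p = 0.0758), and by -2.03 on its other probe (adjusted p over all probes of 0.0434). NONO passed under 6 of the 25 settings, among them without replicate 5 (adjusted p = 0.00513 in limma), and turned to 0.18 under 75th percentile scaling.

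RNA polymerase III and its factors, which make RN7SL1, RN7SK, RMRP and RPPH1, held 9 genes of 33 that rose and 6 that fell, with a median of 0.22 that turned to -0.16 without normalization and to -0.11 under spike-in scaling. Called genes were 45.5% of this list, against 35.0% of all genes tested. Without replicate 5, 11 rose and 9 fell. POU2F1, an activator of the genes with external promoters such as RN7SK, rose by 0.90 (adjusted p = 0.0153). POLR3G, a polymerase subunit, rose by 0.89 (adjusted p = 0.0149). On its other probe POLR3G differed by 0.36 (adjusted p over all probes of 0.0568 in limma), and by 0.62 with the mean of its probes. BRF2, which with TBP starts transcription at RN7SK-type promoters, fell: its signal was 4.75 to 6.17 with miR-1225-3p and 6.54 to 7.24 with the scrambled control, a difference of -1.28 (SE 0.27, adjusted p = 0.0142), or -0.59 with normexp. Its probe is dim, and cleared the background on 4 of 5 arrays with miR-1225-3p. MAF1, the repressor of the polymerase, fell by 2.18 (SE 0.77, adjusted p = 0.0491), with signals of 8.36, 6.60, 6.47, 5.06 and 9.81 in miR-1225-3p replicates 1 to 5 and of 8.78 to 10.19 with the scrambled control. The call of MAF1 was lost under 19 of the 25 settings. As for RN7SL1, replicate 4 was the lowest array and replicate 5 was the highest miR-1225-3p array for MAF1.

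Of 27 other small structural RNAs listed by name, 3 were tested, of which 2 fell and 0 rose in limma. These counts were the same at an unadjusted p under 0.05 and in limma without replicate 5. The methods' t-test called 1 lower and 0 higher. Called genes in limma were 66.7% of the 3 tested, against 35.0% of all genes, and with 3 genes nothing is read from this. TERC, the telomerase RNA, fell by 1.00 (adjusted p = 0.0410), and RNU12, a small nuclear RNA of the minor spliceosome, fell by 1.08 (adjusted p = 0.0283). The call of TERC was lost under 17 of the 25 settings, with -0.62 under 75th percentile scaling, and that of RNU12 under 12. SCARNA2 differed by -0.11 (adjusted p = 0.601). Replicate 5 lay within the scrambled range for TERC and RNU12, as for RN7SK and RMRP.

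**Figure D4:**
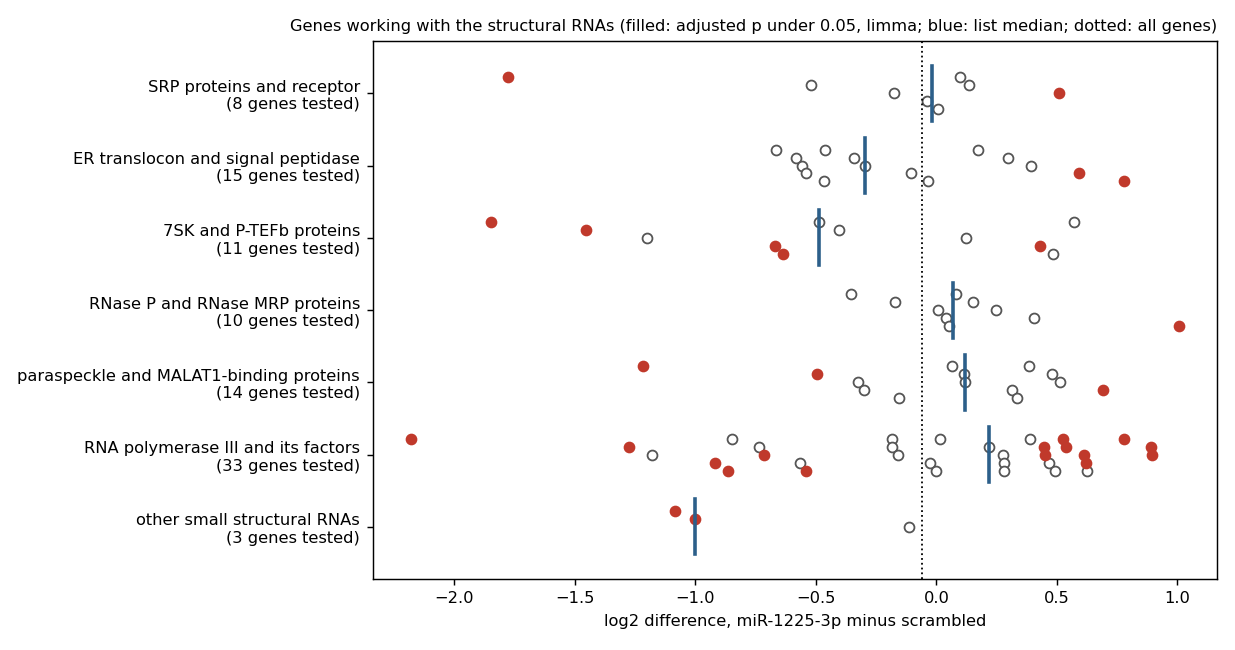
Log2 difference between the miR-1225-3p and scrambled groups (horizontal axis) for each tested gene of the 7 lists (rows). Filled points passed an adjusted p under 0.05 in limma, open points did not, the blue bar is the list median and the dotted line the median of all genes at -0.06. Calls lie on both sides of 0 in most lists, and the 7SK and P-TEFb list has its median at -0.49.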

How the data were processed

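Total RNA of MEG-01 cells was hybridised by the authors to one-colour Agilent arrays, 5 per group, with probes designed on human build hg19. The scanner files were deposited with a processed signal intensity per spot, background-subtracted by Agilent Feature Extraction 10.7.3.1 per the file headers (the methods name another version). The authors also deposited a table of log2 values for 29271 probes, cyclic loess normalized and set against control probes per their methods, which served as an alternative. Columns with no sample numbered 0, and no file of the authors' own comparisons was used.

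From the intensities, log2 values of 58717 spots were normalized by cyclic loess (limma 3.58.1, R 4.3.3, 3 iterations), spots flagged as outliers were left out and the spots of a probe averaged. Of 42405 probes, 20648 passed the scanner's background call in 3 or more arrays of 1 group or the other. Genes were named by matching the RefSeq accession in the scanner file to a RefSeq table (GRCh38.p14): 24910 probes matched. Each gene was read from its brightest probe, giving 17379 genes, of which 11995 had a matched symbol. limma with Benjamini-Hochberg adjustment was used at 0.05 and was tested on simulated data. Alternatives were the 75th percentile, quantile, no or spike-in scaling, normexp background correction, the dim-probe filter, slide or replicate as a block, each slide alone, the methods' t-test, and each array left out. Named genes were, per list, the 2 largest rises and the 2 largest falls among genes that passed, 10 fixed partners (HEXIM1, LARP7, MEPCE, SRP9, SRP14, SRP54, POP1, RPP25, NONO, SFPQ) and the 5 genes most like RN7SL1; 2 genes that this rule names are not reported here, and AFF4 was named after its values were seen. The members and lists were chosen with earlier results of these data known, and the spike-in scaling and the RefSeq classes were chosen after seeing the data. Array numbers, 5 per group, limit the precision.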

Additional observations from a re-analysis of the deposited data

Results flagged for a closer look

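In 54 groups of 5 arrays, the members and the named genes in each condition, 5 held an array set apart from the rest of its group by more than the limit of Dixon's outlier test, where chance would give about 2.7. RMRP in miR-1225-3p replicate 5 had a signal of 9.70, against 8.18 in the nearest array of its group. Replicate 5 was also set apart for SEC61B at 13.21, for POLR3G at 9.22 and for NONO at 11.98. SEC11C in scrambled replicate 5 had a signal of 10.40, against 10.63 in the nearest array.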

How the results depend on the processing

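The differences of RN7SL1, RN7SK, RMRP and MALAT1 stayed below 0 under all alternatives run, and RPPH1 moved to 0.338 with the 75th percentile; the cause was not tested. The 6091 genes called over all became 1266 with no normalization, 267 with spike-in scaling, 3411 with no filter on dim probes, 0 within slide 2 (1220 at an unadjusted p under 0.05 in limma) and 0 with the replicate block (7474 unadjusted), and 2129 to 9624 with each array left out. The 30 listed genes became 2, 0, 17, 0 (5 unadjusted) and 0 (38 unadjusted) under these settings, 17 within slide 1, and 10 to 51 with each array left out, the highest without miR-1225-3p replicate 5; the methods' t-test called 27, and over all genes 4677 after Benjamini-Hochberg adjustment and 8284 before it. Same-numbered arrays did not deviate together (correlations of -0.40 to 0.07), which cannot exclude that the replicate numbers pair cultures. The main comparison was unpaired, as in the methods, and the block is given as an alternative. Scaling moved the share of lower among called genes from 51.6% to 36.2% with the 75th percentile, 40.9% with quantile, 86.3% with no normalization and 33.7% with spike-in scaling. The mean of a gene's probes gave -0.171 for SRP9. SRP54 was -0.052 with no normalization, -0.059 with normexp, -0.038 in the authors' values and -0.035 within slide 2, and -0.039 to 0.039 with each array left out. POP1 was -0.140 with no normalization and -0.088 with spike-in scaling, and NONO was 0.184 with the 75th percentile. The number of arrays and the signal over background limit what can be seen for dim probes such as that of MEPCE.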

Other observations

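Among the small nucleolar RNAs, which guide the modification or cutting of ribosomal RNA precursors, the differences between the groups ran from -3.12 to 0.61. SNORA73A differed by -3.12 and by -3.88 without miR-1225-3p replicate 5, SNORD15A by -2.77 and -3.58, and SNORD3B-1, a copy of the U3 RNA that takes part in making 18S ribosomal RNA, by -2.48 and -3.09. At the other end, SNORA62 differed by 0.10 and SNORA59B by 0.61. Copies of some of these RNAs are near-identical, so a probe may read several genes. SNORD3B-1 was read from the brighter of its 2 probes. These RNAs were listed after their values had been seen, and no test is given.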
